A study of Homo sapiens and Mus musculus with 22 samples.

Results

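The genes described here encode the lysosome and the vacuolar H+-ATPase (V-ATPase). They were chosen by symbol, ignoring case: every gene whose symbol begins with ATP6V0 or ATP6V1, and 29 named genes for lysosomal membrane proteins, hydrolases, lipid-handling proteins and the transcription factors TFEB, TFE3 and MITF. The rule found 53 of 24549 genes in the SETDB1 table, 53 of 23760 in the ATG5 table and 51 of 23849 in the cGAS table. The rule itself uses symbols alone, but its members were chosen with earlier results of these data known.

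The study sequenced poly(A) RNA of U2OS cells, a line from a human osteosarcoma, and of L929 cells, which are mouse fibroblasts. BIX-01294 (BIX), an inhibitor of the histone H3 lysine 9 methyltransferases EHMT1 and EHMT2, was given at 10 µM for 12 h. The U2OS groups with BIX were ATG5.KD-BIX and Vector-BIX, set against ATG5.KD-MOCK and Vector-MOCK, with 1 value per group that stands for 2 replicates according to the labels. The L929 groups were cGAS-KO-BIX and cGAS-WT-BIX, set against cGAS-KO-MOCK and cGAS-WT-MOCK, with 1 library each. A separate U2OS set held SETDB1.KO1-MOCK and SETDB1.KO2-MOCK, set against WT-MOCK, with 2 libraries per group and no BIX. The treatment note of the samples speaks of BIX for all cells, whereas names and treatment labels give mock for part of them, and the names were followed. The labels do not say how the knockdown and the knockouts were made, or whether a knockout is 1 clone. The 8 chromatin samples of the 22 in the series were not analysed here.

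The V-ATPase is a rotary proton pump that acidifies lysosomes and endosomes. Its V1 sector (subunits A to H) sits in the cytoplasm and hydrolyses ATP, and its V0 sector (subunits a, c, c'', d and e) spans the membrane and carries the protons. Soluble hydrolases such as the cathepsins need the acid lumen, and many lysosomal genes are targets of TFEB and TFE3, which move to the nucleus when the kinase mTORC1 is inactive at the lysosome. Several subunits have isoforms restricted to particular tissues such as kidney or osteoclasts.

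Values are FPKM, fragment numbers scaled to transcript length and to the mapped total of the library, as the authors deposited them, so levels of different genes are given per length. The sum of FPKM over a column ran from 445281 to 564049. SETDB1 itself was at 5.90, 7.03, 6.89 and 7.35 FPKM in the knockout libraries, against 9.98 and 9.32 FPKM in WT. ATG5 was at 10.1 FPKM in ATG5.KD-MOCK and 11.3 FPKM in Vector-MOCK, and at 13.4 FPKM in ATG5.KD-BIX and 12.3 FPKM in Vector-BIX, so the knockdown is not visible as a low ATG5 mRNA and its groups are named by their labels. Mb21d1 encodes mouse cGAS and stood at 4.41 FPKM in cGAS-KO-BIX and 3.47 FPKM in cGAS-WT-BIX, and at 1.19 FPKM in cGAS-KO-MOCK and 2.82 FPKM in cGAS-WT-MOCK, so with BIX the library labelled cGAS-KO was not lower. The mesenchymal markers, of which 7 of 8 reached 1 FPKM and VIM was abundant, had a lower summed level with BIX in each background, at 1499.32 FPKM in ATG5.KD-BIX against 1794.59 in ATG5.KD-MOCK, 1576.87 in Vector-BIX against 2104.76 in Vector-MOCK, 4781.26 in cGAS-KO-BIX against 5937.95 in cGAS-KO-MOCK and 4598.46 in cGAS-WT-BIX against 5837.79 in cGAS-WT-MOCK. VIM in U2OS, and S100a4 and Vim in L929, were the largest parts of these sums, and not every marker was lower. In U2OS the locus joining S100A4 was higher with BIX in both backgrounds, and RUNX2 in ATG5.KD. In L929 Runx2 was higher with BIX in both backgrounds, and Fn1 in cGAS-WT. The epithelial markers, 3 of 4 at 1 FPKM in U2OS, had a higher summed level there with BIX, at 1174.21 FPKM in ATG5.KD-BIX against 839.895 in ATG5.KD-MOCK and 779.006 in Vector-BIX against 598.566 in Vector-MOCK, and at most 1.75 FPKM in L929. KRT8 and KRT18 made up nearly all of the U2OS sums. EPCAM was at 2.90 FPKM in ATG5.KD-BIX against 3.16 in ATG5.KD-MOCK, and at 2.79 FPKM in Vector-BIX against 2.48 in Vector-MOCK. These shifts move with the BIX results below, and their part in them was not tested. The macrophage marker genes, whose own lysosomes are abundant, summed to at most 1.40 FPKM in U2OS of the ATG5 set and 4.20 FPKM in L929, and TYROBP was at 0 in L929. Thy1, a fibroblast marker, was at 0 in all 4 L929 libraries.

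Most members were expressed in every library. At least 1 FPKM was reached throughout by 44 of 53 members in the SETDB1 set, 45 of 53 in the ATG5 set and 42 of 51 in the cGAS set. In the WT U2OS libraries the level was highest for CD63, a tetraspanin of late endosomes, at 371 and 461 FPKM. The locus joining MIR4709 and NPC2, a luminal cholesterol carrier, followed at 297 and 343 FPKM, a range that does not reach that of CD63. LAMP1, a heavily glycosylated membrane protein that lines the lysosome, had 191 and 174 FPKM, and ATP6V0C, the proton-binding ring subunit, had 185 and 180 FPKM, so these neighbours overlapped. The transcription factors were lower, with TFE3 at 53.7 and 51.3 FPKM, MITF at 7.49 and 7.37 FPKM and TFEB at 2.92 and 2.43 FPKM.

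Several tissue-restricted isoforms were near the lower limit, but not all. In U2OS of the ATG5 set ATP6V1C2 was at 2.47 to 3.27 FPKM and ATP6V1E2 at 3.17 to 4.42 FPKM. In L929 the joined locus of Atp6v0a4 was at 1.41 to 3.05 FPKM. ATP6V0D2, the d subunit of osteoclasts, was at most 0.182 FPKM in U2OS of the ATG5 set and at 0 in L929. ATP6V1B1 and ATP6V1G3, isoforms known from kidney, were below 1 FPKM in U2OS and at 0 in L929. CTSS, a cathepsin of antigen-presenting cells, was also below 1 FPKM in both lines. The RNA therefore came mainly from the ubiquitous isoforms, ATP6V1A, ATP6V1B2, ATP6V1C1, ATP6V0B, ATP6V0C and ATP6V0D1 among them.

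The first comparison asked what BIX did to these genes in each line. Of the 12 V-ATPase subunit genes tested, 8 rose with BIX in each line, 6 of them in V1 and 2 in V0, while ATP6V0E2 fell in U2OS and ATP6V1A and ATP6V1E2 passed in neither line. The L929 count includes ATP6V1C2, which lay under 1 FPKM there, as did ATP6V1E2. Of the 15 soluble hydrolases, 2 rose and 3 fell in U2OS, and 4 rose and 1 fell in L929. Over all genes tested, 21.9% rose and 19% fell in U2OS, and 18.8% rose and 22.3% fell in L929. ATP6V1C1, ATP6V1B2, ATP6V0B and the cholesterol exporter NPC1 were raised at least 2-fold on the mean in U2OS and in L929. The membrane proteins LAMP1 and LAMP2 did not pass in either line over all genes. The differences were tested with limma on the log2((BIX + 1)/(mock + 1)) ratios of FPKM, 1 ratio per background. The error is the spread between the 2 backgrounds within a line (ATG5.KD and Vector, or cGAS-KO and cGAS-WT), pooled over both lines and moderated across genes. A gene therefore has the same SE in U2OS and in L929, even where its spread differs between the lines. Adjustment followed Benjamini and Hochberg over 10137 genes whose symbols matched between the species, and genes were called at an adjusted p below 0.05. The p-values measure this pooled spread and not that of 1 line alone, and the labels do not show the backgrounds to be separate cultures.

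In U2OS, 13 of the 35 members in this fit were higher with BIX, where 21.9% of all genes were, and 4 were lower, where 19% of all genes were. The median log2 difference was 0.08 for the members. In L929, 14 of the 35 were higher, where 18.8% of all genes were, and 2 were lower, where 22.3% of all genes were, with a median of 0.39. The median over all genes was 0.00 in U2OS and 0 in L929. The calls depend on how the spread is estimated. Fits without ATG5.KD or without Vector called 0 genes in either line (limma), with 9 and 10 members higher in U2OS at an unadjusted p below 0.05, where 12.2% and 13.3% of all genes were, and 12 in L929 in each, where 15.1% were. In these fits 423 and 409 genes had no spread at all. Restricted to genes at 1 FPKM or more in both lines, a choice made after seeing the data, no gene lacked spread. All 4 backgrounds then gave 14 higher and 4 lower of 33 members in U2OS, where 25.2% and 18.6% of these genes were, and 16 higher and 3 lower in L929, where 24.4% and 28.2% were. Among these genes, 9 members were higher in U2OS without ATG5.KD, where 6.51% of the genes were, and likewise 9 without Vector, where 8.99% were, and ATP6V0B, ATP6V0D1, ATP6V1B2, ATP6V1C1, ATP6V1D, ATP6V1G1, CD63 and NPC1 were in both sets of 9. Of the falls in U2OS, 1 was called without ATG5.KD (ATP6V0E2) and 0 without Vector. In L929 13 were higher and 3 lower, both without ATG5.KD (19.2% and 21.9% of the genes) and without Vector (19.3% and 21.9%). Over all genes, ATP6V1D, ATP6V1E1, CD63, CTSD and CTSL were not called in L929 without cGAS-KO, and CD63, CTSL and TFEB were not called without cGAS-WT.

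The members were also counted by role, to be read beside the 21.9% of all genes higher and 19% lower in U2OS, and the 18.8% higher and 22.3% lower in L929. Of the 12 subunit genes in the fit, 8 were higher and 1 was lower in U2OS (median log2 difference 0.89), and 8 were higher and 0 lower in L929 (median 0.72). ATP6V1C2, among the 8 higher in L929, and ATP6V1E2, which was not called, lay under 1 FPKM there and entered through U2OS. The 23 members that are not subunits had 5 higher and 3 lower in U2OS (median 0.02), and 6 higher and 2 lower in L929 (median 0.24). The 15 soluble hydrolases had 2 higher and 3 lower in U2OS and 4 higher and 1 lower in L929. No test was made of one role against another.

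**Figure D1:**
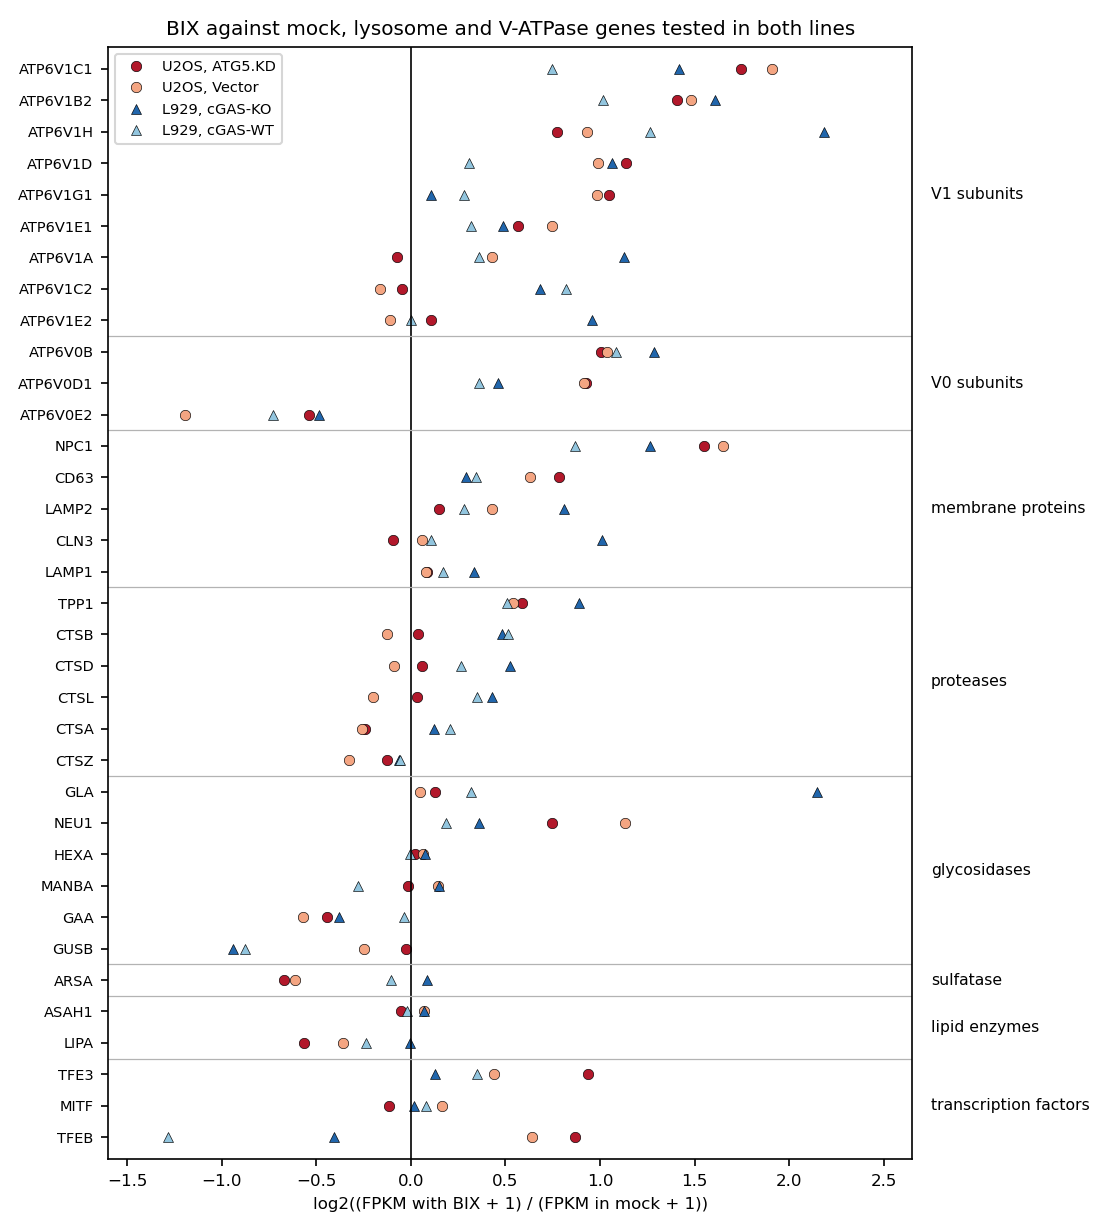
BIX against mock for the 35 members tested in both lines, ordered by role. The horizontal axis is the log2 ratio of FPKM + 1, each row is a gene, circles are U2OS (ATG5.KD, Vector) and triangles L929 (cGAS-KO, cGAS-WT), 1 value each. All 4 points lie above 0 for ATP6V1C1, ATP6V1B2, ATP6V1H, ATP6V0B and NPC1, among others, and below 0 for ATP6V0E2, GAA, GUSB, LIPA and CTSZ.

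Among the V1 subunits, ATP6V1C1 encodes subunit C, which clamps the stator stalks when V1 joins V0. It stood at 30.9 FPKM in ATG5.KD-BIX against 8.53 in ATG5.KD-MOCK and at 31.5 FPKM in Vector-BIX against 7.66 in Vector-MOCK. In L929 it was at 230 FPKM in cGAS-KO-BIX against 85.5 in cGAS-KO-MOCK and at 143 FPKM in cGAS-WT-BIX against 84.9 in cGAS-WT-MOCK. Every BIX value lay above both mock values of its line. The log2 difference was 1.83 in U2OS (SE 0.18, limma adjusted p = 0.0055) and 1.08 in L929 (SE 0.18, limma adjusted p = 0.0129).

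ATP6V1B2, the ubiquitous B subunit of the catalytic head, was at 67.0 FPKM in ATG5.KD-BIX against 24.6 in ATG5.KD-MOCK and at 58.7 FPKM in Vector-BIX against 20.4 in Vector-MOCK. The L929 values were 148 FPKM in cGAS-KO-BIX against 47.9 in cGAS-KO-MOCK and 111 FPKM in cGAS-WT-BIX against 54.3 in cGAS-WT-MOCK. The groups did not overlap in either line, and the log2 difference was 1.44 in U2OS and 1.31 in L929 (SE 0.16 in both, limma adjusted p = 0.0063 and 0.00734). Its partner in the head, the catalytic subunit gene ATP6V1A, did not pass. ATP6V1A was at 12.0 FPKM in ATG5.KD-BIX against 12.7 in ATG5.KD-MOCK, and at 16.6 FPKM in Vector-BIX against 12.1 in Vector-MOCK. In L929 it was at 83.3 FPKM in cGAS-KO-BIX against 37.6 in cGAS-KO-MOCK, and at 46.8 FPKM in cGAS-WT-BIX against 36.3 in cGAS-WT-MOCK. The log2 difference was 0.18 in U2OS (limma adjusted p = 0.584) and 0.74 in L929 (limma adjusted p = 0.0616), where it passed among genes expressed in both lines.

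ATP6V1H, the regulatory subunit that holds free V1 inactive, had the largest L929 response among the subunits in the fit. Its L929 levels were 127 FPKM in cGAS-KO-BIX against 27.1 in cGAS-KO-MOCK and 95.0 FPKM in cGAS-WT-BIX against 39.0 in cGAS-WT-MOCK. In U2OS it was at 27.7 FPKM in ATG5.KD-BIX against 15.8 in ATG5.KD-MOCK and at 29.4 FPKM in Vector-BIX against 14.9 in Vector-MOCK. Both lines passed, with log2 differences of 0.85 in U2OS (SE 0.23, limma adjusted p = 0.0448) and 1.72 in L929 (SE 0.23, limma adjusted p = 0.00872). The difference of these responses did not pass (limma adjusted p = 0.117).

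ATP6V1D, a central stalk subunit, had log2 differences of 1.06 in U2OS and 0.69 in L929 (limma adjusted p = 0.0167 and 0.0492). The L929 ratios were 1.06 in cGAS-KO and 0.31 in cGAS-WT, and without cGAS-KO the call was lost (0.31, limma adjusted p = 0.0851), though not among genes expressed in both lines (limma adjusted p = 0.0362). ATP6V1E1, a stator subunit, had 0.66 and 0.40 (limma adjusted p = 0.0103 and 0.032). ATP6V1G1, its partner in the stator, was at 83.1 FPKM in ATG5.KD-BIX against 39.7 in ATG5.KD-MOCK, and at 76.3 FPKM in Vector-BIX against 38.1 in Vector-MOCK. The L929 values were closer together, with 123 FPKM in cGAS-KO-BIX against 114 in cGAS-KO-MOCK and 147 FPKM in cGAS-WT-BIX against 120 in cGAS-WT-MOCK. This gene passed in U2OS (log2 difference 1.01, SE 0.09, limma adjusted p = 0.00483) and not in L929 (0.19, limma adjusted p = 0.148). ATP6V1C2, a restricted isoform, entered the fit through U2OS, where it was at 2.47 to 3.27 FPKM. In L929 it stayed under 1 FPKM, at 0.802 and 0.764 FPKM with BIX against 0.125 and 0 FPKM in mock, so its call there (0.75, limma adjusted p = 0.00742) rests on values below the filter.

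In the V0 sector, ATP6V0B encodes the c'' subunit of the proton ring. Its levels were 144 FPKM in both ATG5.KD-BIX and Vector-BIX, against 71.1 in ATG5.KD-MOCK and 69.7 in Vector-MOCK. In L929 they were 309 FPKM in cGAS-KO-BIX against 126 in cGAS-KO-MOCK and 314 FPKM in cGAS-WT-BIX against 148 in cGAS-WT-MOCK. ATP6V0B had nearly the same ratio in all 4 backgrounds, with log2 differences of 1.02 in U2OS and 1.18 in L929 (SE 0.09 in both, limma adjusted p = 0.00479 and 0.00472).

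ATP6V0D1, the d subunit that couples V1 to the ring, was at 69.5 FPKM in ATG5.KD-BIX against 36.2 in ATG5.KD-MOCK and at 62.6 FPKM in Vector-BIX against 32.7 in Vector-MOCK. It was at 97.7 FPKM in cGAS-KO-BIX against 70.6 in cGAS-KO-MOCK and at 76.4 FPKM in cGAS-WT-BIX against 59.3 in cGAS-WT-MOCK. Both lines passed, by 0.92 in U2OS and 0.41 in L929 on the log2 scale (limma adjusted p = 0.00483 and 0.0196). ATP6V0E2, an isoform of the small e subunit, went the other way. It was at 2.49 FPKM in ATG5.KD-BIX against 4.08 in ATG5.KD-MOCK and at 1.76 FPKM in Vector-BIX against 5.30 in Vector-MOCK, and at 10.3 FPKM in cGAS-KO-BIX against 14.8 in cGAS-KO-MOCK and 20.1 FPKM in cGAS-WT-BIX against 33.9 in cGAS-WT-MOCK. It fell in U2OS (log2 difference -0.87, limma adjusted p = 0.0257), and in L929 the difference of -0.61 did not pass over all genes (limma adjusted p = 0.0626) but did among genes expressed in both lines (limma adjusted p = 0.0331).

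**Figure D2:**
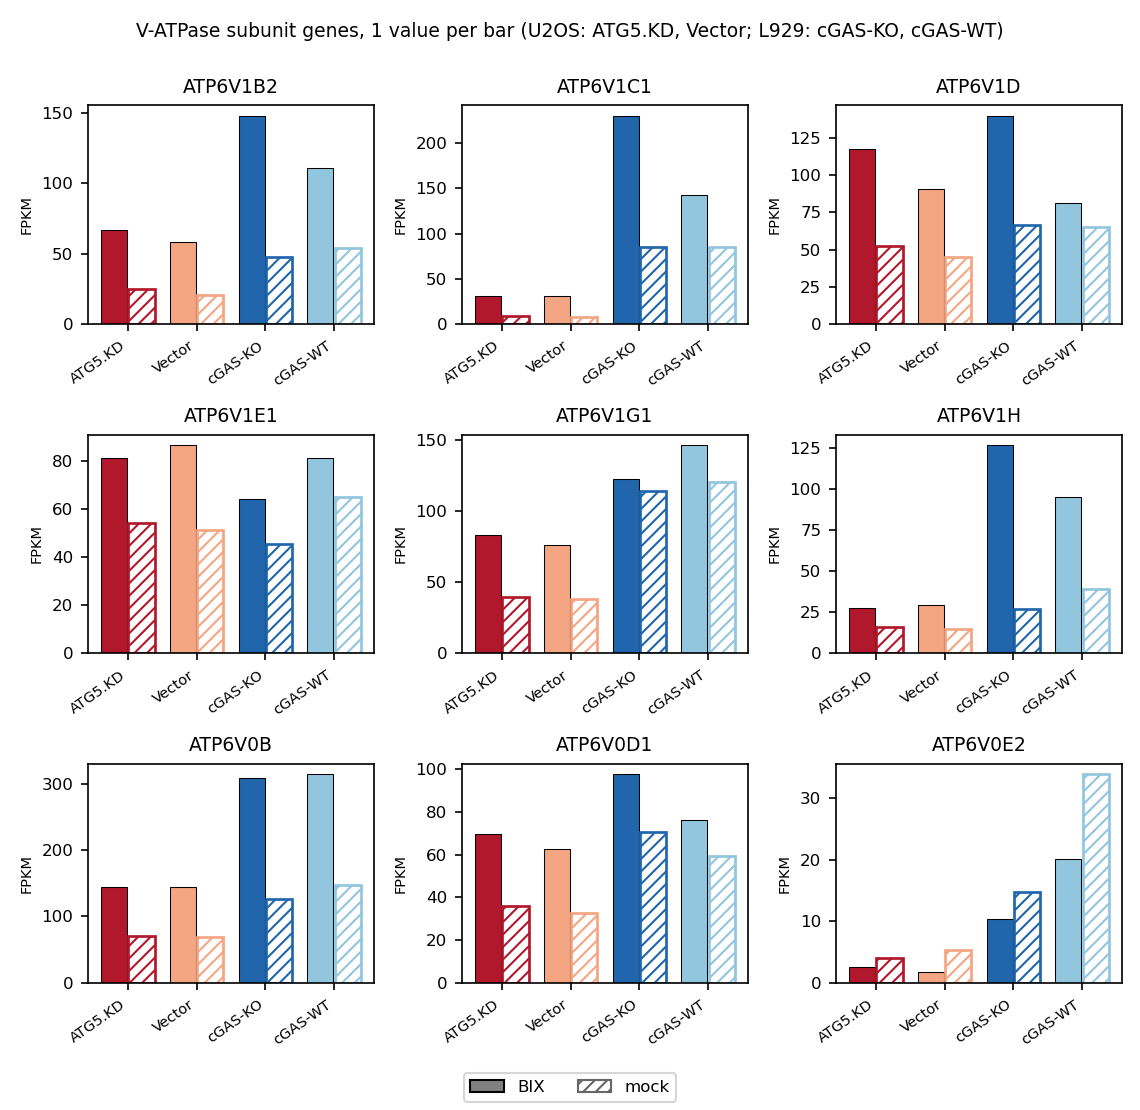
FPKM of the 9 V-ATPase subunit genes ATP6V1B2, ATP6V1C1, ATP6V1D, ATP6V1E1, ATP6V1G1, ATP6V1H, ATP6V0B, ATP6V0D1 and ATP6V0E2, which were called in a line at 1 FPKM or more, with BIX as filled bars and mock as hatched bars in each background. The vertical axes start at 0 and differ between panels. With BIX the bar is the taller one in all 4 backgrounds for each of these 9 but ATP6V0E2, where the mock bar is taller.

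Members left out of the joint fit were 18 in U2OS and 16 in L929. Of the U2OS ones, 9 were listed as loci that join several genes and 7 were below 1 FPKM in all values. ATP6V0C was joined with a pseudogene in mouse, and ATP6V0E1 is named Atp6v0e there. Their values can still be set side by side. ATP6V0C was at 304 FPKM in ATG5.KD-BIX against 188 in ATG5.KD-MOCK and at 344 FPKM in Vector-BIX against 213 in Vector-MOCK, and the joined mouse locus at 608 FPKM in cGAS-KO-BIX against 305 in cGAS-KO-MOCK and 656 FPKM in cGAS-WT-BIX against 410 in cGAS-WT-MOCK. All 4 BIX values were higher than their mocks, as for the c'' subunit of the ring. ATP6V0E1, the ubiquitous e subunit, was at 199 FPKM in ATG5.KD-BIX against 122 in ATG5.KD-MOCK and at 216 FPKM in Vector-BIX against 120 in Vector-MOCK, and mouse Atp6v0e at 155 FPKM in cGAS-KO-BIX against 113 in cGAS-KO-MOCK and 187 FPKM in cGAS-WT-BIX against 151 in cGAS-WT-MOCK.

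In a fit chosen after seeing the data, which matched each symbol of a joined locus singly, ATP6V0C was called in U2OS (0.69, limma adjusted p = 0.0105) and in L929 (0.83, limma adjusted p = 0.00717). The a subunits, which anchor the pump in particular membranes, pointed the other way in that fit. ATP6V0A1 fell by 0.67 in U2OS on the log2 scale (limma adjusted p = 0.0197), and its difference of -0.42 in L929 did not pass (limma adjusted p = 0.0599). ATP6V0A2 fell by 0.50 in L929 (limma adjusted p = 0.0428), and its difference of -0.45 in U2OS did not pass (limma adjusted p = 0.0558). In U2OS these loci share their values with MIR5010 and TCTN2, so how much is the a subunit cannot be told apart, and the ATP6V0A1 locus was low, at 0.390 FPKM in ATG5.KD-BIX against 0.950 in ATG5.KD-MOCK and 0.200 FPKM in Vector-BIX against 1.16 in Vector-MOCK. Mouse Atp6v0a1, listed alone, was at 29.6 FPKM in cGAS-KO-BIX against 40.9 in cGAS-KO-MOCK and at 43.6 FPKM in cGAS-WT-BIX against 57.7 in cGAS-WT-MOCK.

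Among the 5 membrane protein genes in the joint fit, NPC1, which exports cholesterol from the lysosome, had the largest difference in both lines. Its levels were 19.0 FPKM in ATG5.KD-BIX against 5.85 in ATG5.KD-MOCK and 21.2 FPKM in Vector-BIX against 6.06 in Vector-MOCK. In L929 they were 23.6 FPKM in cGAS-KO-BIX against 9.27 in cGAS-KO-MOCK and 22.8 FPKM in cGAS-WT-BIX against 12.0 in cGAS-WT-MOCK. The BIX and mock ranges were separate in both lines, and NPC1 passed with log2 differences of 1.60 in U2OS and 1.07 in L929 (SE 0.13 in both, limma adjusted p = 0.00477 and 0.0075). CD63 also passed in both, by 0.71 and 0.32 (limma adjusted p = 0.0059 and 0.0297). LAMP1 was at 189 FPKM in ATG5.KD-BIX against 179 in ATG5.KD-MOCK and at 227 FPKM in Vector-BIX against 215 in Vector-MOCK, and at 569 FPKM in cGAS-KO-BIX against 452 in cGAS-KO-MOCK and 377 FPKM in cGAS-WT-BIX against 335 in cGAS-WT-MOCK. LAMP1 did not pass (log2 differences 0.08 and 0.25, limma adjusted p = 0.448 and 0.0608). LAMP2, whose splice form LAMP2A serves chaperone-mediated autophagy, had differences of 0.29 and 0.55 (limma adjusted p = 0.21 and 0.0517), and its L929 difference passed among genes expressed in both lines.

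TPP1, a serine protease of the lumen, rose in both, by 0.56 in U2OS and 0.70 in L929 (limma adjusted p = 0.0235 and 0.0134). CTSB, CTSD and CTSL, the abundant cathepsins, rose in L929 by 0.50, 0.39 and 0.39 (limma adjusted p = 0.0119, 0.0361 and 0.0326), while in U2OS their differences were -0.04, -0.01 and -0.08 (limma adjusted p = 0.715, 0.942 and 0.525). CTSD was at 84.1 FPKM in ATG5.KD-BIX against 80.7 in ATG5.KD-MOCK and at 113 FPKM in Vector-BIX against 120 in Vector-MOCK. The L929 values of CTSD were 337 FPKM in cGAS-KO-BIX against 234 in cGAS-KO-MOCK and 363 FPKM in cGAS-WT-BIX against 303 in cGAS-WT-MOCK. The BIX and mock groups of CTSD overlapped in U2OS and were apart in L929. By the direct test of U2OS against L929, CTSB differed (limma adjusted p = 0.0349), while CTSD, CTSL and TPP1 did not pass (limma adjusted p = 0.0965, 0.0623 and 0.569).

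Among the glycosidases, the sulfatase and the lipid enzymes, 1 rose and 4 fell in one line or the other. NEU1, the lysosomal sialidase, rose in U2OS with 17.5 FPKM in ATG5.KD-BIX against 10.0 in ATG5.KD-MOCK and 20.2 FPKM in Vector-BIX against 8.66 in Vector-MOCK (log2 difference 0.94, limma adjusted p = 0.00998). ARSA, GAA and LIPA, which act on sulfatides, glycogen and cholesteryl esters, fell in U2OS by 0.64, 0.51 and 0.46 on the log2 scale (limma adjusted p = 0.0122, 0.033 and 0.0354). ARSA was at 7.72 FPKM in ATG5.KD-BIX against 12.9 in ATG5.KD-MOCK and at 9.84 FPKM in Vector-BIX against 15.6 in Vector-MOCK. GUSB, the lysosomal glucuronidase and a common reference gene in quantitative PCR, fell in L929, with 20.8 FPKM in cGAS-KO-BIX against 40.8 in cGAS-KO-MOCK and 37.9 FPKM in cGAS-WT-BIX against 70.4 in cGAS-WT-MOCK (log2 difference -0.91, limma adjusted p = 0.00604). HEXA, ASAH1 and MANBA did not pass in either line.

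The transcription factors did not move together. TFE3 was at 94.8 FPKM in ATG5.KD-BIX against 49.1 in ATG5.KD-MOCK and at 60.9 FPKM in Vector-BIX against 44.8 in Vector-MOCK, and rose in U2OS (log2 difference 0.69, limma adjusted p = 0.0259). In L929 its difference of 0.24 did not pass (limma adjusted p = 0.275). TFEB was at 7.99 FPKM in ATG5.KD-BIX against 3.92 in ATG5.KD-MOCK and at 10.2 FPKM in Vector-BIX against 6.16 in Vector-MOCK, which did not pass (0.75, limma adjusted p = 0.0615) except among genes expressed in both lines. In L929 Tfeb was at 5.85 FPKM in cGAS-KO-BIX against 8.07 in cGAS-KO-MOCK and at 5.59 FPKM in cGAS-WT-BIX against 15.1 in cGAS-WT-MOCK, and it fell (-0.84, limma adjusted p = 0.0461), with the cGAS-WT-MOCK value standing above the rest. Without cGAS-WT this was -0.40, and whether the fall was called then depended on which genes were tested. MITF had differences of 0.02 and 0.05 (limma adjusted p = 0.909 and 0.823). These are mRNA levels and carry no information on where the proteins were.

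Over all 4 backgrounds taken as units, 10 of the 35 members were higher, where 11.6% of all genes were, and 1 was lower, where 9.86% of all genes were. This fit ignores which line a background belongs to, so backgrounds of 1 line count as independent units. The 10 were the subunit genes ATP6V0B, ATP6V0D1, ATP6V1B2, ATP6V1C1, ATP6V1D, ATP6V1E1 and ATP6V1H, with NPC1, CD63 and TPP1, and the lower one was ATP6V0E2. Without ATG5.KD 2 of the members were called higher, where 215 of 9853 genes were, and without Vector 4, where 313 of 9844 genes were. ATP6V0E2 was not called in any of the 4 fits over all genes that left a background out. Among genes expressed in both lines, 12 of 33 members were higher with all backgrounds, where 1358 of 7864 genes were. There 8 members were higher without ATG5.KD, where 790 of 7788 genes were, and 8 without Vector, where 843 of 7809 genes were.

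The responses of U2OS and L929 were then compared directly. Of the 35 members, 4 had a higher response in U2OS, where 15.1% of all genes did, and 3 a lower one, where 11.1% of all genes did. These 7 are TFEB, ATP6V1G1, GUSB and ATP6V0D1 on the higher side and ATP6V1C2, ARSA and CTSB on the lower side. TFEB had the widest gap, 1.60 on the log2 scale (SE 0.33, limma adjusted p = 0.0341). The fits without ATG5.KD or without Vector called 0 genes (limma), with 3 members higher in each at an unadjusted p below 0.05 (11.5% and 11.8% of all genes) and 3 and 2 lower (9.63% and 9.41%). Among genes expressed in both lines, TFEB was the one member still called without Vector, and 0 were called without ATG5.KD, with 4 higher and 1 lower at an unadjusted p below 0.05 (12.5% and 8.01% of these genes).

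**Figure D3:**
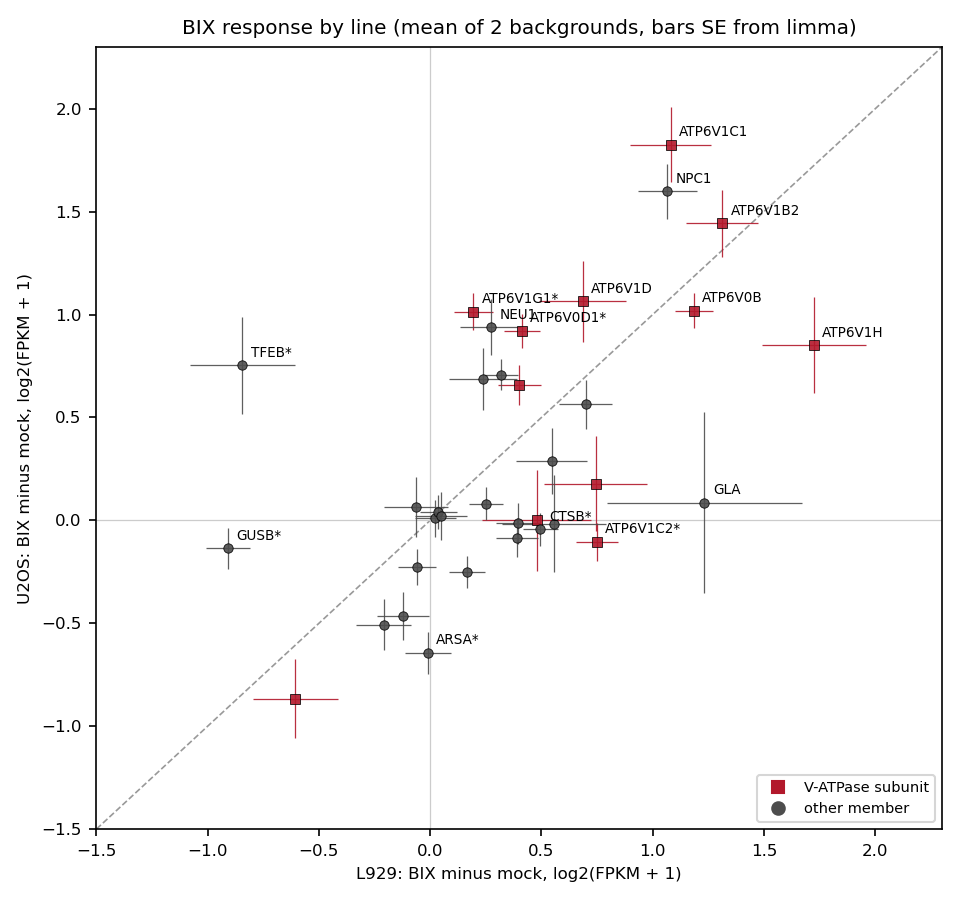
BIX response in U2OS (vertical axis) against that in L929 (horizontal axis), as the log2 difference of FPKM + 1, each point 1 of 35 members with SE bars from limma. Squares are V-ATPase subunits, the dashed line marks equal responses, and an asterisk marks the 7 genes whose responses differed. TFEB lies at 0.75 in U2OS and -0.84 in L929.

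The promoters of members that rose, did not pass and fell are shown because all 4 hold TCACGTGA, the core of the lysosomal regulatory element that TFEB and TFE3 are known to bind. The sequences are RefSeq, GRCh38.p14, 250 bases before and 50 after the annotated start, 5′ to 3′ on the gene's strand, with TCACGTGA in capitals. ATP6V0D1 (chr16:67481108-67481407, minus strand) and ATP6V1G1 (chr9:114587519-114587818, plus strand) rose in U2OS, LAMP1 (chr13:113296989-113297288, plus strand) did not pass, and GAA (chr17:80101331-80101630, plus strand) fell.
ATP6V0D1: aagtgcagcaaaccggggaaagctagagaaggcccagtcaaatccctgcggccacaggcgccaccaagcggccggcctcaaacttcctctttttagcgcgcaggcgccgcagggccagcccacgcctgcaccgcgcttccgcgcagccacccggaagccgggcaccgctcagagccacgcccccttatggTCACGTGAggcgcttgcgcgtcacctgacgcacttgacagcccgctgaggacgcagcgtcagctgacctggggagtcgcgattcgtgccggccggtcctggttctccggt
ATP6V1G1: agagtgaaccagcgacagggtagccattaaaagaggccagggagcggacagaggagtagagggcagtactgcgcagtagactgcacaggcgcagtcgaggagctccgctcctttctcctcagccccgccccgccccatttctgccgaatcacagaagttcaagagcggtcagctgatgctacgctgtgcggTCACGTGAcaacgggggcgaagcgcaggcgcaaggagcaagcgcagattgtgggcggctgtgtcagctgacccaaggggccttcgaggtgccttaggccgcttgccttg
LAMP1: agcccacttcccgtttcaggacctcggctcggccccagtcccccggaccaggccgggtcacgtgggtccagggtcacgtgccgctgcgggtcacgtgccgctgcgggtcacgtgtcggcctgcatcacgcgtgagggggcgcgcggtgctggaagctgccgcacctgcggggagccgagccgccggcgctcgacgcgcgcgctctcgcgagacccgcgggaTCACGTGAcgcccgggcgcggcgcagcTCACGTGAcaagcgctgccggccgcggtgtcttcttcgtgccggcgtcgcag
GAA: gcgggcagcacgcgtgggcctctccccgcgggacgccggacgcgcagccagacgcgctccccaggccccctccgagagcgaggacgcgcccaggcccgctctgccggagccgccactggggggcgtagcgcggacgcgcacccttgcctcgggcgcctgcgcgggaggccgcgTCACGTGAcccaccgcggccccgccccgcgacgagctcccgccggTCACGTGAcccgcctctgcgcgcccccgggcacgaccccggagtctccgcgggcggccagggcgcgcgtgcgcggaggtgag

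The motif begins 60 bases before the start in ATP6V0D1 and 59 in ATP6V1G1, and LAMP1 and GAA hold it 2 times each. Of 54 human member symbols, 37 had a promoter in the table, and 7 of these 37 hold TCACGTGA, which reads the same on both strands and contains CACGTG. Among all 35116 promoters, 0.98% hold TCACGTGA and 7.26% hold CACGTG. These shares are per promoter, while a member with several promoters counts as holding the motif if any of them does, so the units differ. By response in U2OS, TCACGTGA stood in 2 of 10 members that rose, 3 of 11 that did not pass and 1 of 3 that fell, with MCOLN1 as the remaining one. A match says only that these letters occur in the window.

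Other lysosomal genes, 73 in 5 lists, were counted in the same fits. Of 29 soluble hydrolases and activators outside the members, 10 were lower and 1 higher in U2OS, where 19% of all genes were lower and 21.9% higher, and 14 were lower and 3 higher in L929, where 22.3% were lower and 18.8% higher. HYAL2, a hyaluronidase, fell by 1.70 in U2OS (limma adjusted p = 0.00613), and ACP2, an acid phosphatase, fell by 0.73 in U2OS and 1.53 in L929 on the log2 scale (limma adjusted p = 0.0139 and 0.00472). TCIRG1, the a3 subunit of the V-ATPase whose symbol lies outside the ATP6V rule, fell in both lines, by 1.07 and 0.59 (limma adjusted p = 0.0112 and 0.0453).

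Of 13 genes of lysosomal nutrient sensing, which recruit and switch mTORC1, 7 were higher and 2 lower in U2OS (median log2 difference 0.61), and 6 were higher and 1 lower in L929 (median 0.13, 7 of 13 above 0), beside the same shares of all genes. FLCN, the GTPase-activating protein for RRAGC and RRAGD, rose by 1.81 in U2OS and 1.48 in L929 (limma adjusted p = 0.0109 and 0.0162). Its levels were 23.6 FPKM in ATG5.KD-BIX against 5.99 in ATG5.KD-MOCK and 26.2 FPKM in Vector-BIX against 6.77 in Vector-MOCK. FNIP1, its binding partner, rose by 1.57 and 1.91 (limma adjusted p = 0.0332 and 0.0195), and RRAGC, a Rag GTPase, by 1.45 and 1.16 (limma adjusted p = 0.0151 and 0.0245). LAMTOR2, a subunit of the scaffold that anchors the Rag GTPases, fell in both lines, by 0.50 and 0.47 (limma adjusted p = 0.0189 and 0.0212). Lists of membrane proteins (6 higher and 1 lower of 12 in U2OS, 3 and 0 in L929), mannose 6-phosphate tagging (1 and 3 of 7, then 1 and 1) and V-ATPase accessory factors (0 and 2 of 8, then 1 and 2) were smaller.

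Each background was also read singly, where no test is possible and a gene was counted when it was at least 2-fold apart on the FPKM + 1 scale. With BIX, 7 of 45 members were higher and 0 lower in ATG5.KD, where 8.22% and 3.81% of all genes were, and 5 of 46 were higher and 1 lower in Vector, where 6.5% and 4.38% of all genes were. In L929, 10 of 44 were higher and 1 lower in cGAS-KO, where 13.1% and 9.92% of all genes were, and 3 of 45 were higher and 2 lower in cGAS-WT, where 7.43% and 6.24% of all genes were. Members made up 0.835% of the summed FPKM in ATG5.KD-BIX against 0.682% in ATG5.KD-MOCK, 0.908% in Vector-BIX against 0.780% in Vector-MOCK, 0.992% in cGAS-KO-BIX against 0.719% in cGAS-KO-MOCK and 0.957% in cGAS-WT-BIX against 0.782% in cGAS-WT-MOCK. The share was higher with BIX in each background, and the U2OS sums include loci joined with abundant neighbours such as EIF4A1 and DDX39B. The cGAS-WT-BIX library held 0.748 of the reads of cGAS-WT-MOCK, judged from the steps in low FPKM values.

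The genotype comparisons asked whether ATG5 knockdown or cGAS knockout altered these genes. Between ATG5.KD and Vector, 0 of 46 members were 2-fold apart in mock, where 0.723% of all genes were higher and 0.572% lower. With BIX 1 of 45 was higher, where 1.64% of all genes were, and 0 were lower, where 0.607% were. That one was the locus joining ATP6V1F, FLNC and LOC100130705, at 398 FPKM in ATG5.KD-BIX and 186 FPKM in Vector-BIX, and its FLNC part, a muscle filamin gene, cannot be told apart from the V-ATPase subunit. The BIX log2 ratio of ATG5.KD minus that of Vector had a median of 0.01 over the members, and 0 members were 1 or more apart, where 1.08% of all genes were that much higher and 0.377% lower.

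Between the L929 libraries labelled cGAS-KO and cGAS-WT the 2-fold counts were larger; the Mb21d1 levels above do not separate these labels with BIX, so directions are those of the labels. In mock, 2 of 45 were higher and 4 lower in cGAS-KO than in cGAS-WT, where 4.76% and 3.21% of all genes were, and with BIX 3 of 44 were higher and 4 lower, where 6.54% and 5.31% were. Cd68, a membrane protein named as a macrophage marker, was at 29.6 FPKM in cGAS-KO-BIX against 80.3 in cGAS-WT-BIX and at 5.11 FPKM in cGAS-KO-MOCK against 41.2 in cGAS-WT-MOCK. Lipa, the lysosomal acid lipase, was at 27.7 FPKM in cGAS-KO-BIX against 60.9 in cGAS-WT-BIX and at 27.7 FPKM in cGAS-KO-MOCK against 72.0 in cGAS-WT-MOCK. Mitf stood at 0.683 FPKM in cGAS-KO-BIX against 3.83 in cGAS-WT-BIX and at 0.666 FPKM in cGAS-KO-MOCK against 3.57 in cGAS-WT-MOCK. These 3 genes were 2-fold or more lower in the libraries labelled cGAS-KO under both treatments. Atp6v0e2 passed that size in mock, at 14.8 FPKM in cGAS-KO-MOCK against 33.9 in cGAS-WT-MOCK, and Ctsa, the protective protein of the sialidase, with BIX, at 56.8 FPKM in cGAS-KO-BIX against 117 in cGAS-WT-BIX.

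Ctsk, a collagen-degrading cathepsin, was higher in the libraries labelled cGAS-KO under both treatments, at 29.1 FPKM in cGAS-KO-BIX against 13.7 in cGAS-WT-BIX and at 40.4 FPKM in cGAS-KO-MOCK against 13.3 in cGAS-WT-MOCK. Gla, the lysosomal galactosidase, was at 45.0 FPKM in cGAS-KO-BIX against 9.56 in cGAS-WT-BIX and at 9.37 FPKM in cGAS-KO-MOCK against 7.47 in cGAS-WT-MOCK, so the library labelled cGAS-KO-BIX was the one high library. Cln3, a lysosomal membrane protein gene mutated in juvenile Batten disease, had the same shape, at 28.3 FPKM in cGAS-KO-BIX against 12.2 in cGAS-WT-BIX and 13.6 FPKM in cGAS-KO-MOCK against 11.2 in cGAS-WT-MOCK. Mcoln1 was higher in mock, at 25.5 FPKM in cGAS-KO-MOCK against 11.1 in cGAS-WT-MOCK. Cd68 and Gla had a BIX log2 ratio at least 1 higher in cGAS-KO than in cGAS-WT, where 3.4% of all genes did, and Sgsh, a heparan sulfatase, one at least 1 lower, where 2.96% did. Each group is 1 library, so genotype and library cannot be told apart. The libraries also differed in mesenchymal markers in mock. Col1a2 was at 486 FPKM in cGAS-KO-MOCK against 49.4 in cGAS-WT-MOCK, Fn1 at 348 against 18.6 and Col3a1 at 43.5 against 1.10. Runx2 and S100a4 were lower in cGAS-KO-MOCK than in cGAS-WT-MOCK. Macrophage markers were low in all 4 libraries, with a summed level of 3.27 FPKM in cGAS-KO-BIX against 1.43 in cGAS-WT-BIX and 4.20 FPKM in cGAS-KO-MOCK against 0.885 in cGAS-WT-MOCK, of which Cd14 was the 1 gene of 7 to reach 1 FPKM. Csf1r stayed under 1 FPKM and Tyrobp at 0, and the summed level was higher where Cd68 was lower.

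**Figure D4:**
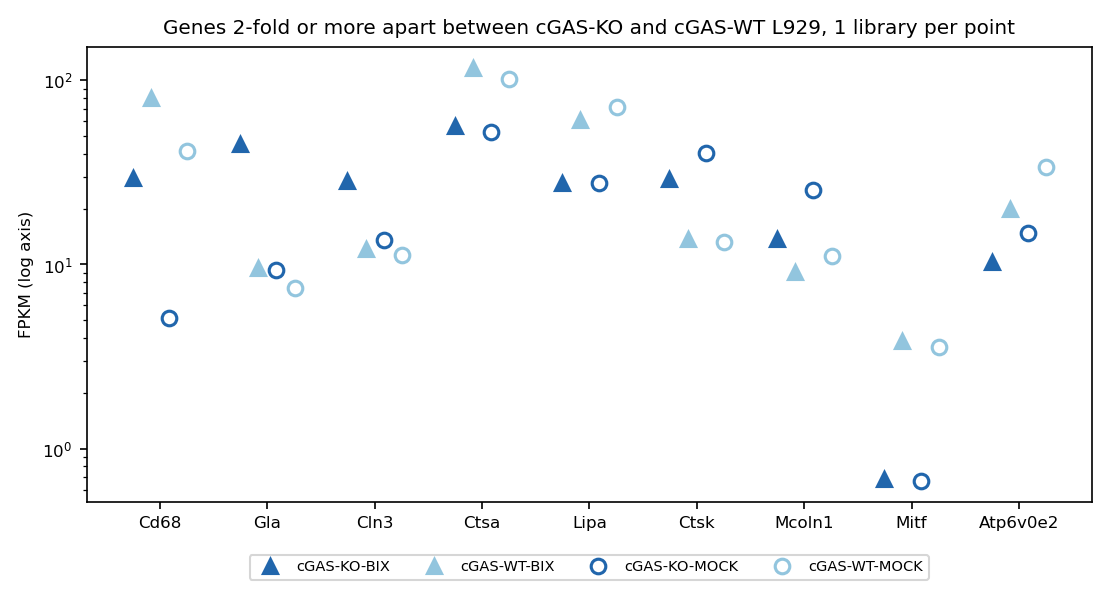
FPKM (log axis) of the 9 members at least 2-fold apart between cGAS-KO and cGAS-WT L929 in mock or with BIX, 1 library per point, triangles for BIX and open circles for mock. Cd68, Lipa and Mitf are lower in cGAS-KO under both treatments, and Gla is high in cGAS-KO-BIX alone, at 45.0 FPKM.

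The SETDB1 set asked whether loss of this H3K9 methyltransferase changes lysosomal genes without BIX. No member passed. Of the 45 members among 12648 genes in the fit, 0 were called higher, where 2.31% of all genes were, and 0 lower, where 0.656% were, for both knockouts averaged against WT (limma). At an unadjusted p below 0.05, 3 members were higher, where 5.69% of all genes were, and 1 was lower, where 5.89% were. KO1 alone called 0 members, where 1.76% of all genes were higher and 0.395% lower, with 0 at an unadjusted p below 0.05 (4.7% of all genes higher, 4.61% lower). KO2 alone called 0, where 1.83% were higher and 0.348% lower, with 2 higher and 1 lower at an unadjusted p below 0.05 (5.23% and 4.48% of all genes). Members' log2 differences had a median of 0.04 and lay between -0.24 for CTSB and 0.31 for CD68, against a median of -0.01 for all genes.

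The 17 V-ATPase subunit genes in the fit include those that rose with BIX, except ATP6V1C2. Their 95% limits ran from -0.42 (ATP6V1E2) to 0.41 (ATP6V0A2) on the log2 scale, so a 2-fold change of FPKM + 1 lies outside each interval. For ATP6V1G2 this holds only for its joined locus, whose value includes DDX39B, so a change of the subunit gene itself cannot be told apart. ATP6V1C1 was at 10.3 and 12.6 FPKM in KO1 and 11.7 and 11.8 FPKM in KO2, against 10.3 and 12.0 FPKM in WT, and the groups overlapped. ATP6V0B was at 76.2 and 82.3 FPKM in KO1 and 89.0 and 63.8 FPKM in KO2, against 81.6 and 88.0 FPKM in WT, also overlapping.

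Among the rest, CTSB was at 119 and 115 FPKM in KO1 and 108 and 102 FPKM in KO2, against 131 and 130 FPKM in WT. MCOLN1, the lysosomal calcium channel, was at 10.3 and 10.6 FPKM in KO1 and 12.0 and 11.1 FPKM in KO2, against 8.23 and 9.60 FPKM in WT. Their groups did not overlap, yet neither passed (log2 differences -0.24 and 0.28, SE 0.09 and 0.10, limma adjusted p = 0.284 for both). All 4 knockout libraries lay above both WT libraries for 6 members, CLN3, CTSA, LAMP1, MCOLN1, NPC1 and SGSH, where this held for 10.2% of all genes, and below them for 2, ATP6V1B2 and CTSB, where it held for 11.2%. TFEB was at 2.93 and 2.49 FPKM in KO1 and 2.55 and 3.52 FPKM in KO2, against 2.92 and 2.43 FPKM in WT. Of the other lysosomal genes 71 were in the fit, and 1 of them passed, CTSC, a dipeptidyl peptidase, which fell by 0.54 (limma adjusted p = 0.00855). The mesenchymal markers summed to 1464.69 and 1438.12 FPKM in KO1 and 1391.5 and 1525.18 FPKM in KO2, against 1576.93 and 1586.59 FPKM in WT. COL1A1, the COL3A1 locus, THY1 and RUNX2 were lower in every knockout library than in both WT libraries. VIM, the largest part of the sum, overlapped between the groups, as did FN1 and S100A4. The epithelial markers summed to 790 and 715 FPKM in KO1 and 838 and 718 FPKM in KO2, against 834 and 943 FPKM in WT. Those sums overlapped. The part of these marker levels in the differences was not tested. KO1 and KO2 differed from each other in 0 members, where 0.00791% of all genes were higher and 0.0158% lower (limma, 0 at an unadjusted p below 0.05).

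**Figure D5:**
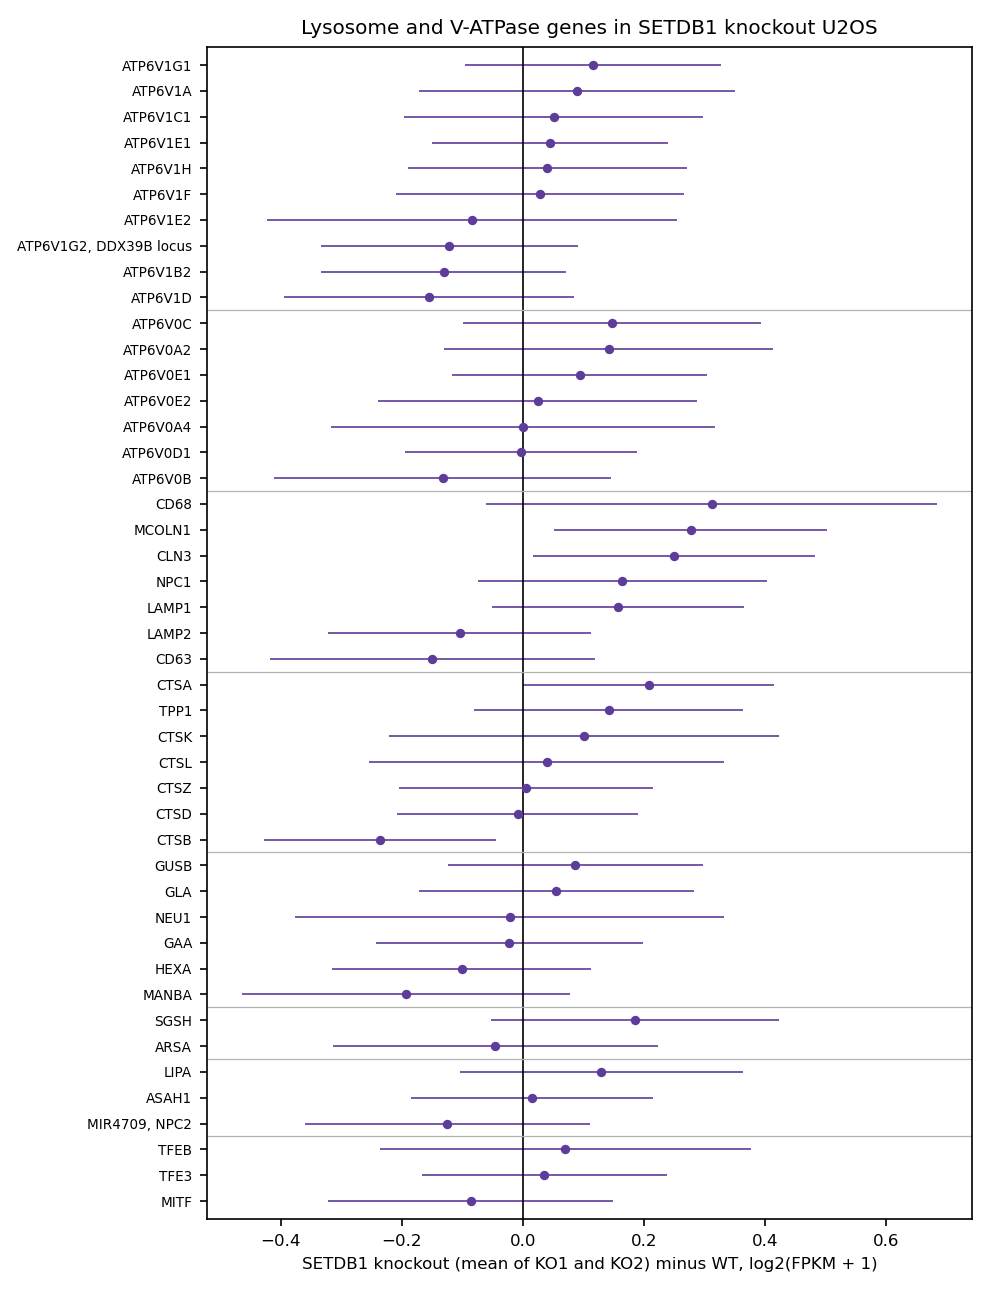
SETDB1 knockout minus WT for 45 members in U2OS, mean of KO1 and KO2 (2 libraries each) against WT (2 libraries), as the log2 difference of FPKM + 1 with 95% confidence intervals from limma. Rows are genes grouped by role. The points lie between -0.24 and 0.31, and no gene passed after adjustment.

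In these bulk libraries fewer expressing cells and less RNA per cell cannot be told apart, and FPKM gives each gene's share of the RNA, not its amount per cell.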

How the data were processed

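The data are RNA-seq of 14 samples in 3 sets. Per the submitters' processing notes, the authors used FastQC, cutadapt, TopHat2 and Cufflinks with hg19 or mm10. Those notes name no options, annotation or strand setting. The deposited values are FPKM per gene, used as they stood. Read counts and total depth are unknown. Column sums ran from 445281 to 564049. Relative depth was read from the steps of FPKM values under 0.3, and was not clear in the U2OS values with BIX.

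Of entries sharing a symbol the one with the highest mean was kept, and loci joining several symbols stayed 1 gene. Values were analysed as log2(FPKM + 1). A gene entered a test when 2 or more of its values reached 1 FPKM, and was tested with limma 3.58.1 (R 4.3.3, moderated variance with trend), with Benjamini-Hochberg adjustment over all genes and a threshold of 0.05. The SETDB1 libraries shared 1 fit of 4 contrasts. BIX was tested in 4 contrasts on 4 ratios, 1 per background, with genes matched by symbol between human and mouse. In 8 comparisons of single values, genes with FPKM of at least 1 in either value and at least 2-fold apart were counted. Tables were normalised separately, so levels set across tables are descriptions. Where replicates are named, no source shows them to be separate cultures, and p-values measure the spread between these samples.

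Named members are those called in a contrast, those 2-fold apart in a single comparison with FPKM of at least 5, and TFEB, TFE3, MITF, LAMP1, LAMP2, CTSD and ATP6V0D2. Genes named beyond these were chosen after their values were seen. The members and gene lists were chosen with earlier results of these data known. Promoters came from RefSeq, GRCh38.p14, and no coordinate of the authors' builds was used. Alternatives covered the pseudocount, the filter, centring, joined loci, duplicate entries, the variance trend, the fold, the replicate block, leaving out each library or background and, added after seeing the data, genes expressed in both lines, joined symbols matched singly, each line alone and short non-coding RNAs left out. Python 3.11.15 with pandas 2.3.3 and matplotlib 3.10.9 was used for tables and figures.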

Additional observations from a re-analysis of the deposited data

Results flagged for a closer look

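The BIX response of 7 of the 35 members (20%) differed between U2OS and L929 by the test of the difference (limma, adjusted over 10137 genes). Of all 10137 genes 2654 differed, so members were not called more often than all genes. The higher side held 4 members, where 15.1% of all genes were, and the lower side 3, where 11.1% were. Differences are given as the log2 response of U2OS minus that of L929. TFEB differed by 1.60 (0.75 in U2OS, -0.84 in L929, adjusted p = 0.0341), ATP6V1G1 by 0.82 (1.01 and 0.19, adjusted p = 0.0203) and GUSB by 0.77 (-0.14 and -0.91, adjusted p = 0.027). ATP6V0D1 differed by 0.51 (0.92 and 0.41, adjusted p = 0.0411), with the same direction in both lines. On the other side were ATP6V1C2 with -0.85 (-0.10 and 0.75, adjusted p = 0.0208), ARSA with -0.63 (-0.64 and -0.01, adjusted p = 0.0411) and CTSB with -0.54 (-0.04 and 0.50, adjusted p = 0.0349). ATP6V1C2 entered the fit through its U2OS values alone, since its L929 values lie under 1 FPKM, so its L929 response and this difference are not read further. The lines also differ in species, annotation and in how the values were pooled, which cannot be told apart from the line.

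A further pair lay outside the joint fit and moved in opposite directions in both backgrounds of each line, a difference that was not tested there. SGSH had mean log2 responses of 0.21 in U2OS, where it is joined with CARD14, and -1.65 in L929, a gap of 1.87. In the fit that matched joined symbols singly, chosen after seeing the data, this gap had a limma adjusted p of 0.0407. ATP6V1G2 had 0.70 in U2OS, where its locus includes DDX39B, and -0.73 in L929, where its level was at most 1.72 FPKM, a gap of 1.43.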

How the results depend on the processing

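Members kept a count of 0 calls in every SETDB1 contrast under each alternative run, the replicate block included. With the replicate block 455 genes of the whole table were called in the mean of the knockouts against 375 without it, 349 against 272 in KO1, 335 against 276 in KO2 and 3 against 3 between KO1 and KO2. Same-numbered libraries had correlations of their deviations of 0.108, 0.131 and 0.0827, with only 2 numbers per group and no label of a shared batch, so they were not treated as pairs. An FPKM of at least 5 left 184, 127 and 127 genes in the mean, KO1 and KO2, and no filter 245, 159 and 165. Between KO1 and KO2 no filter, or leaving out short non-coding RNAs, gave 0. Leaving out a library gave 251 to 383 genes in the mean, 192 to 282 in KO1, 157 to 334 in KO2 and 0 to 10 between KO1 and KO2.

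Leaving out a background, over all genes or those expressed in both lines, gave 0 to 5754 genes, 0 to 15 members higher and 0 to 6 lower in U2OS, and 0 to 5240, 0 to 18 and 0 to 3 in L929. Across backgrounds it gave 303 to 1622 genes, 2 to 11 members higher and 0 to 2 lower, and for U2OS minus L929 0 to 4083 genes, 0 to 9 higher and 0 to 11 lower. Each such fit has fewer residual degrees of freedom and assumes that the lone background varies like the others. The numbers of genes called moved along with those of members, so these ranges are not read as results about the members. No filter gave 1375 genes and 0 members lower across backgrounds, 2 lower in U2OS, 1 in L929 and 1 in the difference. Joined symbols matched singly gave 4 of 46 members lower across backgrounds, where 1212 of 12007 genes were, and 5 in L929, where 2690 genes were. Each line fitted alone gave 8019 of 12461 genes in U2OS, 4107 higher and 3912 lower, with 20 of 45 members higher and 8 lower. In L929 it gave 4 of 45 members lower, where 2155 of 11059 genes were. The cause was not tested. No called member changed sign under any alternative.

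At 1.5-fold, a lower threshold by construction, more members were counted with BIX: 17 higher and 1 lower in ATG5.KD, 16 and 3 in Vector, 6 lower in cGAS-KO, 8 and 4 in cGAS-WT. For ATG5.KD against Vector it gave 1 higher in mock and 2 with BIX, and for cGAS-KO against cGAS-WT 8 lower in mock and 8 and 8 with BIX. Shares of all genes were counted at the main setting only, so the counts in this paragraph are not read as results about the members. Without joined loci 0 were higher in ATG5.KD against Vector with BIX. A pseudocount of 0.1 gave 2 lower in Vector and 3 in cGAS-KO. An FPKM of at least 5 gave 1 lower in cGAS-WT and a members' median of 0.27 in Vector, against 0.15. With read counts not given in the sources used here, no depth limit can be set.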
